A study of Mus musculus with 3 samples.

Results

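The PGC-1 coactivators, the estrogen-related receptors and the transcription factors that work with them were examined in skeletal muscle of mice. The group was fixed by symbol and holds 10 genes of the 24481 gene rows measured. They are the coactivator genes Ppargc1a, Ppargc1b and Pprc1, the receptor genes Esrra, Esrrb and Esrrg, the muscle regulator Perm1, and the downstream factors Tfam, Nrf1 and Gabpa. Each of the 10 symbols stood on a row of its own in every library. The study, whose title names leaf extracts of the dwarf bamboo Sasa quelpaertensis and fatigue, profiled muscle messenger RNA in 3 groups of outbred ICR mice on postnatal day 42. The groups were exercise with a treatment labelled SQH, an exercise control, and a control. Each group had 1 library, from an individual mouse or a pool, which the labels leave unsaid. The muscle sampled, the exercise and the SQH dose are not given in the labels.

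PGC-1 coactivators do not bind DNA themselves. They are recruited to promoters by transcription factors, among them the estrogen-related receptors, orphan nuclear receptors that bind DNA without a known natural hormone and drive genes of fatty acid oxidation, the tricarboxylic acid cycle and the respiratory chain. Together with NRF1 and GABPA they raise the nuclear genes of the mitochondrion, and through TFAM, which packages and transcribes mitochondrial DNA, the mitochondrial ones. In muscle Ppargc1a is known as a gene induced by contraction, cold and fasting, and in mice ERRbeta and ERRgamma are known to promote the slow oxidative fibre type.

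The sequence just upstream of the annotated start is shown for the coactivator gene with the widest difference, Ppargc1a, and for a textbook pair of factor and target, Gabpa and Tfam, whose values appear below. The windows hold the 250 bases before the start, read on the strand of the gene from RefSeq (build GRCm38.p6), and capitals mark a motif match.
Ppargc1a, chr5:51567726-51567975, minus strand: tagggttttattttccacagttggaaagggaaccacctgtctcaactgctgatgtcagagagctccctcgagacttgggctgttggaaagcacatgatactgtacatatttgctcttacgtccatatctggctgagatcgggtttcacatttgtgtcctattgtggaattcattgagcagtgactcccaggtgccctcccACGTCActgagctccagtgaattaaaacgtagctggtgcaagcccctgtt
Gabpa, chr16:84834874-84835123, plus strand: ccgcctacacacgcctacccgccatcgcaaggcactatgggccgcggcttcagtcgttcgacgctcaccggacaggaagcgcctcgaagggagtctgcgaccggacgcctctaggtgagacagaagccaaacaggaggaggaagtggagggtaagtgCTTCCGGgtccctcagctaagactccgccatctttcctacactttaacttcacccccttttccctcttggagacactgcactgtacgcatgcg
Tfam, chr10:71238045-71238294, minus strand: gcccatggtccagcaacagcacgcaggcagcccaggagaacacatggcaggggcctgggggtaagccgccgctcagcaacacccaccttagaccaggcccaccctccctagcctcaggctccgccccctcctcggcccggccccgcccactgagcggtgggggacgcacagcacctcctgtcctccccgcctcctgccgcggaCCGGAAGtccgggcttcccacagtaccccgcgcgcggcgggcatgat
In the Ppargc1a window the capitals are the core TGACGT of the cyclic AMP response element, read on the opposite strand and starting 50 bases before the start. In the Gabpa and Tfam windows they are CCGGAAG, the core of the ETS-type site that GABPA binds, on the opposite strand in Gabpa and on the gene's own strand in Tfam.

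Of the 10 genes 9 had upstream windows, 14 in all, because Esrrb, Esrrg and Nrf1 have several annotated starts. Both strands were searched for the ERR response element TNAAGGTCA, the core of the NRF1 site, CCGGAAG, the full cyclic AMP element TGACGTCA, the MEF2 site and TGACGT, the last chosen after the Ppargc1a sequence was read. TGACGT is part of TGACGTCA. The 3 windows printed were those with a match, and the other 11 held none of these letters. Among all 32851 windows, 1.14% held the ERR element, 3.74% the NRF1 core, 6.91% CCGGAAG, 1.55% TGACGTCA, 0.103% the MEF2 site and 6.47% TGACGT. Reads from the 3' end of a transcript do not show which start was used.

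Each library was made with a 3' end kit, in which reads come from beside the poly(A) tail and do not grow in number with transcript length. The deposited values are log2 levels, called levels here, and the spacing of low values puts the libraries at about 12.4 M reads with SQH, 8.12 M in the exercise control and 10.8 M in the control. Calls rest on size alone and need a level that differs by at least 1 on the log2 scale (2-fold) and a linear value averaging 66.5 or more across the libraries, the median of rows above 0 in some library. All 10 genes were past that minimum, as were 7857 rows in all. With no replicates there is no p-value, and the ± beside a difference is the standard error of counting reads only, which covers neither mice nor library preparation. The tissue label was met by its markers, since the 15 fast-fibre contractile genes summed to 19.41, 20.06 and 19.66 on the log2 scale with SQH, in the exercise control and in the control. The exercise control library stood apart in slow-fibre genes. There 12 of the 16 were called lower relative to control muscle (median -3.39), beside 5.33% of all rows. Their summed level was 18.85 with SQH, 16.11 in the exercise control and 19.18 in the control, and none of the 16 was at 0. All 5 nerve and Schwann cell markers past the minimum were called higher there (median 1.85), beside 2.95% of all rows. The summed level of the 12 listed was 10.47 with SQH, 12.14 in the exercise control and 10.36 in the control, and among these Nefl was at 0 in every library and Nefm in the exercise control.

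Ppargc1a, which encodes PGC-1alpha, stood at a level of 12.41 with SQH, 11.35 in the exercise control and 10.75 in the control, from about 7085, 2197 and 1838 reads. The SQH library was the highest and the control the lowest, with gaps wider than counting error at both steps. The difference was 1.65 ± 0.04 between SQH and control, 1.06 ± 0.04 between SQH and the exercise control, and 0.60 ± 0.05 between the exercise control and the control. It was called higher with SQH in both comparisons and was not called between the exercise control and the control. Of all 7857 rows 37 (0.471%) were called higher with SQH than in both other libraries. The call against the exercise control lay close to the threshold, and the difference was 0.98 once each library was centred on its median. SQH against control was a 3.14-fold difference, ranking 25 of 7857 from the highest. In that comparison the slow-fibre genes had a median of -0.33 and the nerve markers of 0.05, with none of either list called. The fast-fibre genes had a median of -0.29, with none of 15 called. Actc1 of the cardiac list was called lower (-2.39), 1 of 2 past the minimum. Postn of the fibroblast list was called higher (1.56), 1 of 8 past the minimum. Adipocyte markers lay above the control with SQH in 6 of 6 past the minimum (median 0.33, Cfd called at 1.22). Of those below the minimum, Adipoq differed by 0.01 and Plin1 by 1.34. Over all rows 48.7% lay above 0 there, 1.76% were called higher and 1.26% lower. The adipocyte markers lay above the exercise control in 5 of 6 (median 0.46), with Cidea (2.39) and Cfd (1.24) called. In that comparison 52.1% of all rows lay above 0, 5.68% were called higher and 2.33% lower. There 12 of the 16 slow-fibre genes were called higher (median 3.0), and all 5 nerve markers past the minimum were called lower (median -1.79). The summed level of the 12 adipocyte markers listed was 14.75 with SQH, 14.36 in the exercise control and 14.54 in the control. Much of each sum was Car3, at 14.01, 13.56 and 13.88 in the same libraries. Lep was at 0 in every library, Ucp1 in the exercise control and the control, and Cidec and Retn in the exercise control. The part of any of these lists in the Ppargc1a values was not tested.

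Ppargc1b, which encodes the relative PGC-1beta, was nearly level, at 9.56 with SQH, 9.64 in the exercise control and 9.44 in the control. The exercise control differed from the control by 0.21 ± 0.08, just beyond counting error, and SQH lay within counting error of both. Pprc1, which encodes the PGC-1-related coactivator known from serum-stimulated cells, was low, at 6.45 with SQH, 6.20 in the exercise control and 6.91 in the control, from about 114, 62 and 128 reads. Its exercise control value lay -0.70 ± 0.22 from the control, which is short of the threshold. The gene shares 177 exonic bases with Ldb1 on the opposite strand, none of them in its last 500 bases, and strand handling is not given in the sources used here.

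Since 3' reads do not scale with length, the shares of the coactivators can be set side by side on the linear scale. Ppargc1a made up 86.6% of the summed level of the 3 coactivators with SQH (95% exact binomial interval 85.8 to 87.3), 75.0% in the exercise control (73.3 to 76.5) and 68.0% in the control (66.2 to 69.8). These intervals cover counting error only. Ppargc1b accounted for 12.0%, 22.9% and 27.3% in the same libraries, and Pprc1 for 1.4%, 2.1% and 4.7%. The summed linear level was 6269.7 with SQH, 3482.4 in the exercise control and 2538.5 in the control, so the order of the sums was that of Ppargc1a.

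**Figure D1:**
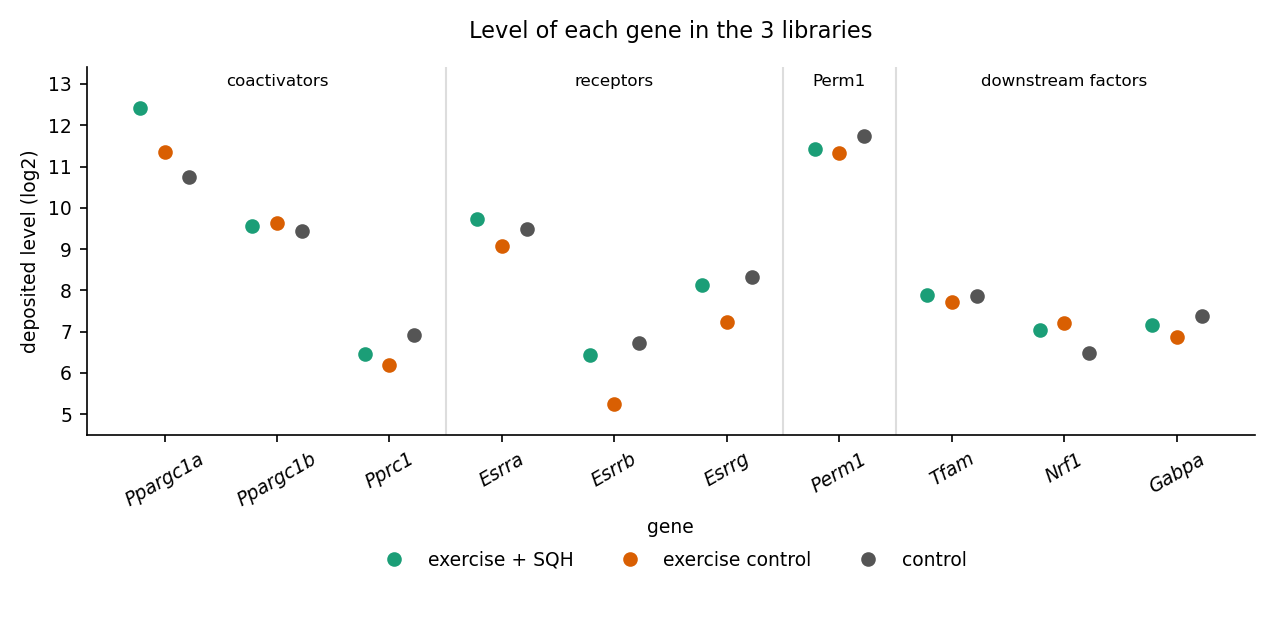
Deposited log2 level of each of the 10 genes (vertical axis) in the exercise plus SQH, exercise control and control libraries, 1 point per library, with genes grouped by role. Ppargc1a steps down across the 3 libraries (12.41, 11.35 and 10.75), while Esrra, Esrrb and Esrrg each have their lowest point in the exercise control. Pprc1, Perm1, Tfam and Gabpa have theirs there too.

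The 3 receptor genes shared the position of their lowest value, which was the exercise control library in each case. Pprc1, Perm1, Tfam and Gabpa were lowest in that library as well. Esrrb, the receptor also known from embryonic stem cells, stood at 6.44 with SQH, 5.25 in the exercise control and 6.73 in the control, from about 114, 32 and 113 reads. The exercise control value was far below the others, and the SQH and control values lay within counting error of each other. In the exercise control it was called lower against the control (-1.48 ± 0.29), and with SQH it was called higher against the exercise control (1.19 ± 0.29). The second call ended with 16 linear units added to each value (0.93), and an expression minimum at the upper quartile left Esrrb and Esrrg out. Since the few reads leave wide intervals, the first of these differences runs from -2.05 to -0.91 on counting error alone. In bulk tissue, fewer cells of a type and less RNA per cell cannot be told apart.

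Esrrg, the gene of ERRgamma, a receptor of highly oxidative tissues, had levels of 8.13 with SQH, 7.24 in the exercise control and 8.32 in the control. In the exercise control it was called lower against the control (-1.08 ± 0.15). The difference between SQH and the exercise control, 0.90 ± 0.15, fell short of the threshold, and that between SQH and the control was -0.19 ± 0.11. Esrra, the most abundant of the 3 and itself a target of PGC-1alpha, had levels of 9.74 with SQH, 9.08 in the exercise control and 9.49 in the control. Its differences were 0.67 ± 0.08 between SQH and the exercise control, -0.41 ± 0.09 between the exercise control and the control, and 0.26 ± 0.07 between SQH and the control, none of them called. It shares 73 bases at its 3' end with Trmt112 on the opposite strand, so some of its reads may belong there. Trmt112 stood at 8.18 with SQH, 7.71 in the exercise control and 7.99 in the control, lowest in the same library.

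In linear units the receptors summed to 1225.8 with SQH, 729.3 in the exercise control and 1144.2 in the control. Esrra made up 70.0%, 74.1% and 62.8% of those sums, Esrrg 22.9%, 20.7% and 28.0%, and Esrrb 7.1%, 5.2% and 9.3%. The Esrra share was thus lowest in the control, at 62.8% (60.0 to 65.5), and its intervals with SQH (67.7 to 72.2) and in the exercise control (70.4 to 77.5) overlap each other. The receptor sum and the coactivator sum had different orders over the libraries, with the coactivators lowest in the control and the receptors lowest in the exercise control. Slow-fibre genes were lowest in that same library, by far more than the receptors, and nerve markers were highest there. The part of either in the receptor values was not tested.

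**Figure D2:**
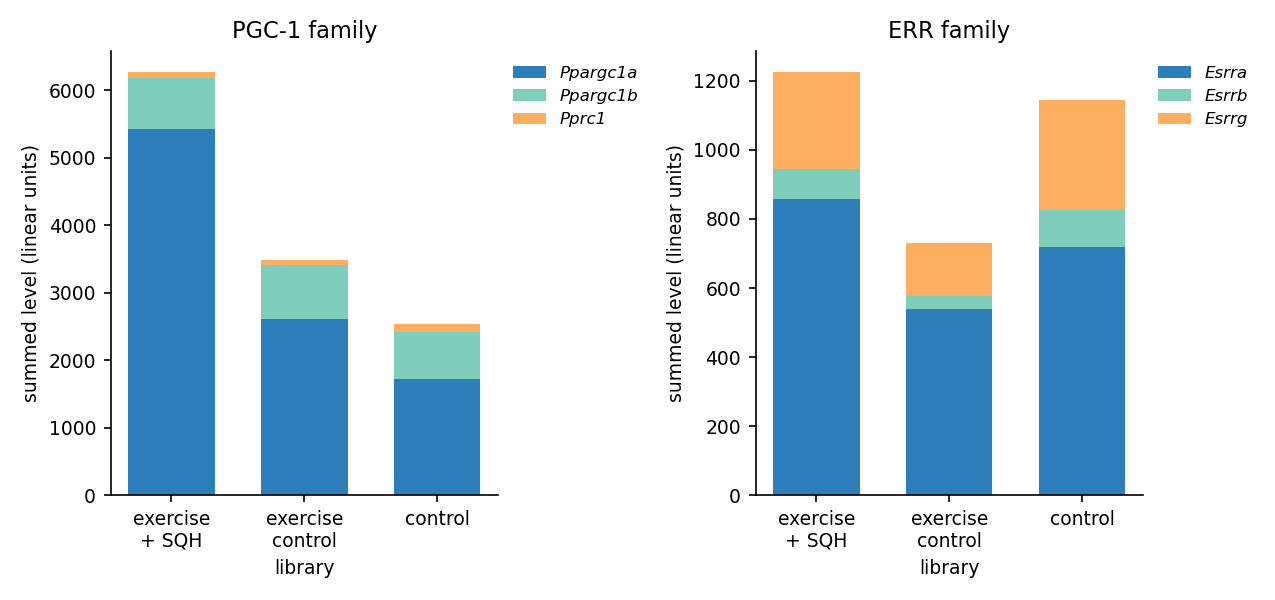
Summed linear level of the 3 coactivator genes (left) and the 3 receptor genes (right) in each library, as stacked bars coloured by gene. The coactivator bar is tallest with SQH, at 6269.7, and the receptor bar is shortest in the exercise control, at 729.3.

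Perm1 encodes a muscle protein that is induced by PGC-1 and the estrogen-related receptors and acts on their target genes. It was the most abundant of the 10 in the control library and second to Ppargc1a in the SQH library. Its levels were 11.42 with SQH, 11.33 in the exercise control and 11.74 in the control, from about 3575, 2164 and 3650 reads. The control was the highest. SQH differed from it by -0.32 ± 0.03 and the exercise control by -0.42 ± 0.04, both beyond counting error and well inside the threshold. Where Ppargc1a was 1.06 higher with SQH than in the exercise control, Perm1 differed by 0.09 ± 0.04.

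The downstream factors showed no call in any comparison. Tfam had levels of 7.88 with SQH, 7.72 in the exercise control and 7.87 in the control, all within counting error of their neighbours in order. Nrf1, the gene of nuclear respiratory factor 1, had 7.03 with SQH, 7.20 in the exercise control and 6.49 in the control. Both exercise libraries lay above the control, by 0.54 ± 0.18 with SQH and by 0.71 ± 0.20 in the exercise control. Gabpa, the DNA-binding subunit of GABP, had 7.15 with SQH, 6.86 in the exercise control and 7.38 in the control. The exercise control differed from the control by -0.52 ± 0.18, beyond counting error, and the SQH value between them lay within counting error of each. It shares 397 exonic bases with Atp5j on the opposite strand, away from its last 500 bases. The GABPA core printed above for Tfam and Gabpa stands before the RefSeq start of each. In the mouse annotation GENCODE M21, where Tfam begins at 71238280 (minus strand) and Gabpa at 84834925, both matches lie inside the gene. The ranges of Tfam and Gabpa over the libraries were 0.16 and 0.52.

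**Figure D3:**
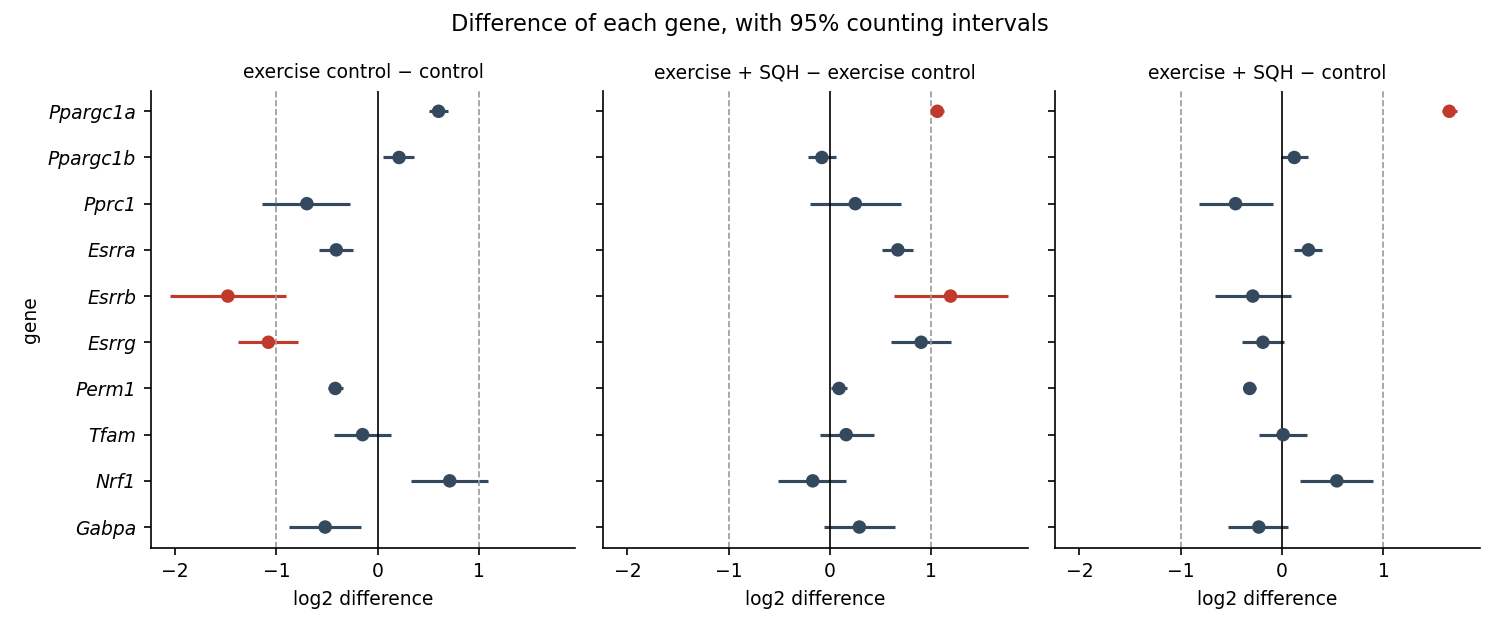
Log2 difference of each gene (points) with its 95% counting interval (lines) in the 3 comparisons, named above each panel as the library minus the one it is set against. Red marks called genes and dashed lines the threshold of 1 in either direction. Red points are Esrrb and Esrrg in the left panel, Ppargc1a and Esrrb in the middle panel, and Ppargc1a in the right panel.

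The exercise control and control libraries were compared to see how exercised muscle differed. Of the 10 genes, Esrrb and Esrrg were called lower and none was called higher, against 8.29% of all rows called in either direction, 5.33% called lower and 2.95% called higher. After centring, 293 rows were higher and 348 lower, in place of 232 and 419, while both receptor genes remained past the threshold. The median of the 10 was -0.41, beside -0.045 over all rows, and 3 of them lay above 0, beside 46.3% of all rows. Ppargc1a, Ppargc1b and Nrf1 were the members above 0.

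The SQH library was compared with the exercise control to see what the treatment changed in exercised muscle. Here Ppargc1a and Esrrb were called higher and none was called lower, against 8.01% of rows called in either direction, 5.68% called higher and 2.33% called lower. The median of the 10 was 0.27, beside 0.026 over all rows, and 8 of them lay above 0, beside 52.1% of all rows. Ppargc1b (-0.08 ± 0.07) and Nrf1 (-0.17 ± 0.17) were the members below 0. The exercise control library enters this comparison and the one before it, so the values of the receptors in both rest on the same low library.

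Exercise plus SQH against the control leaves that library out. Ppargc1a was the only member called, against 3.02% of rows called in either direction, 1.76% called higher and 1.26% called lower. The median of the 10 was -0.09, beside -0.015 over all rows, with 5 above and 5 below 0. Over all rows 48.7% lay above 0. The receptor genes that had been called lay near 0 here, Esrrb at -0.29 ± 0.19 and Esrrg at -0.19 ± 0.11. The second widest member after Ppargc1a was Nrf1, at 0.54 ± 0.18.

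**Figure D4:**
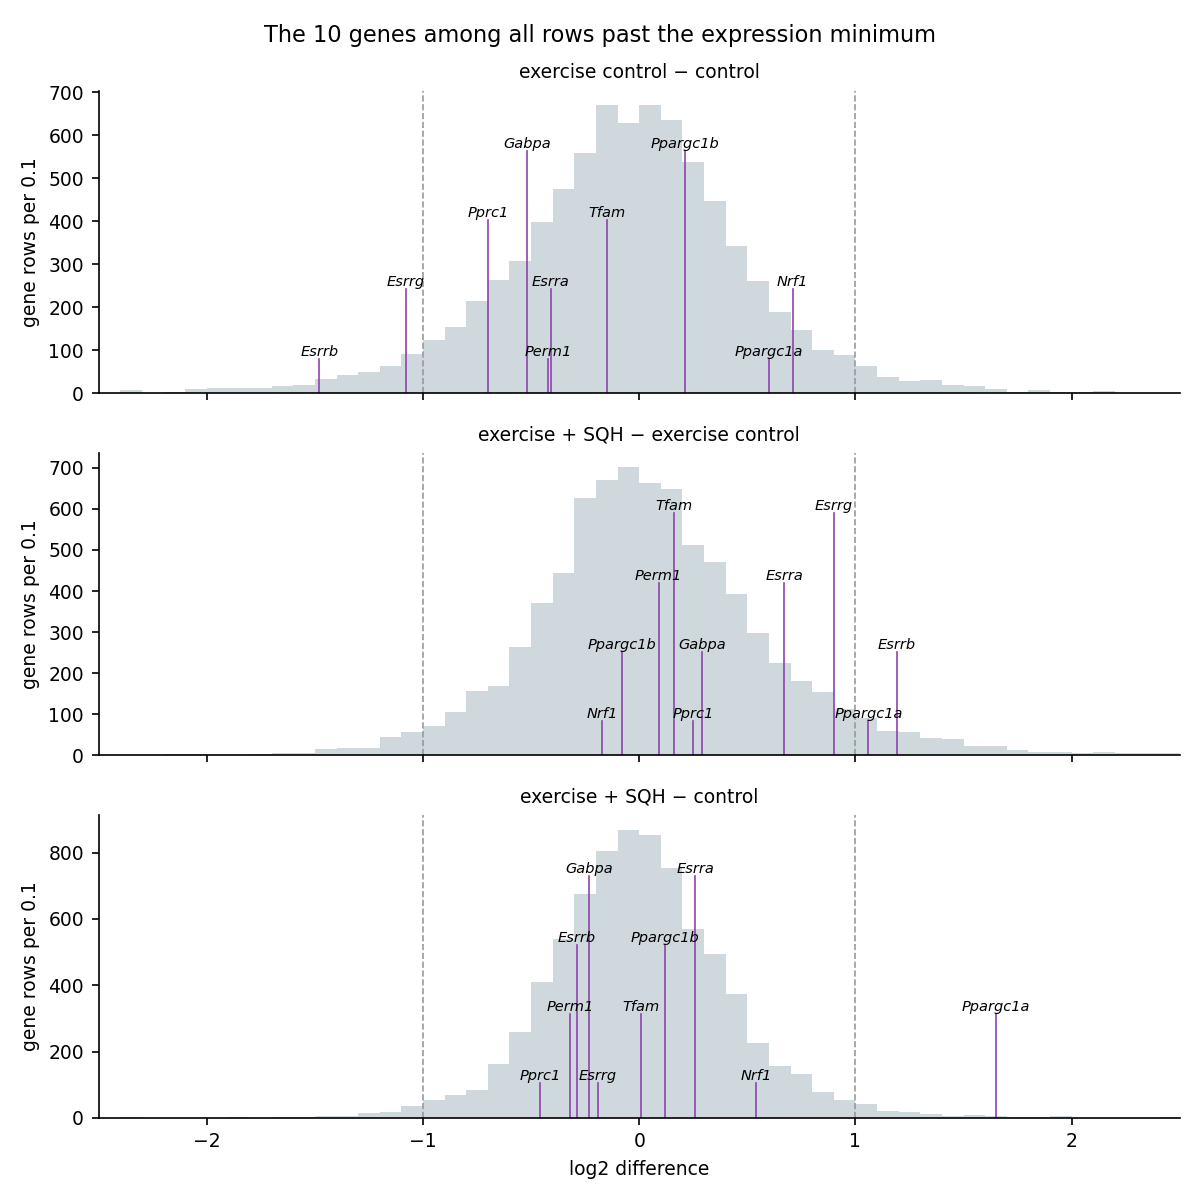
Number of gene rows past the expression minimum per 0.1 of log2 difference (grey bars, cropped at 2.5 in either direction) in the 3 comparisons, with the 10 genes marked by lines whose heights only separate the names. Esrrb and Esrrg lie beyond the dashed threshold on the left in the top panel, and Ppargc1a stands alone among the 10 beyond it in the bottom panel.

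Likeness to the called members was measured by the distance between pairs of log2 differences (exercise control minus control, SQH minus control) over the 3 libraries, among 7515 other named genes past the minimum. For Ppargc1a only 4 genes lay within 0.25, and the 5 nearest were Cilp, Rgs2, Zfyve21, Cdh15 and Cnst. Cilp, a cartilage and matrix protein gene, had levels of 8.55 with SQH, 7.47 in the exercise control and 6.96 in the control. Rgs2, a regulator of G protein signalling, had 8.53, 7.47 and 6.79 in the same libraries. For Esrrb 36 genes lay within 0.25, led by Idh2, the mitochondrial isocitrate dehydrogenase, with 12.79, 11.64 and 13.13. The others among its nearest were Itgb6, Gimap8, Dhx32 and Hspa1l, of which Dhx32 shares 204 bases at its 3' end with Bccip. For Esrrg 147 genes lay as near, and the 5 nearest were Ppil1, Ppp1r16a, Smap1, Rsph3b and Inca1. Smap1 shares 394 of its last 500 bases with B3gat2, and Hspa1l and Rsph3b have close relatives in the genome, so reads of these genes may be split. Patterns near that of Esrrg were thus more frequent than those near Esrrb or Ppargc1a. Most rows lie near 0 in both differences, so such counts tend to fall as a gene's own differences widen. Of all 7857 rows, 261 (3.32%) were called lower in the exercise control against each of the other libraries. Esrrb is among these and Esrrg is not.

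Genes known to act on PGC-1 or to share its complexes were followed as a list of 38, of which 31 were past the minimum. In the exercise control against the control, Kat2a, which encodes the acetyltransferase GCN5 that restrains PGC-1alpha, was called higher (1.19 ± 0.19), and Ncoa1, a coactivator of nuclear receptors, was called lower (-1.18 ± 0.22). Kat2a stood at 6.98 with SQH, 7.56 in the exercise control and 6.37 in the control. Ncoa1 stood at 6.97, 6.11 and 7.28 in the same libraries, and shares 68 bases at its 3' end with a gene of the opposite strand. These are 2 of 31, beside 8.29% of all rows. The median was -0.15, with 13 of 31 above 0, beside 46.3% of all rows.

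With SQH against the exercise control, Mapk14, the gene of the p38alpha kinase that phosphorylates PGC-1alpha, was the list's only called member (1.30 ± 0.18). Its levels were 7.91 with SQH, 6.61 in the exercise control and 7.50 in the control, so the exercise control was again the low library. That is 1 of 31, beside 8.01% of all rows. The median was 0.07, with 20 of 31 above 0, beside 52.1% of all rows. Against the control no member was called, and the widest differences were those of the deacetylase genes Sirt1 (0.80 ± 0.20) and Sirt3 (0.72 ± 0.19) and of Kat2a (0.61 ± 0.19). Sirt1, whose product deacetylates PGC-1alpha, stood at 7.0 with SQH, 6.36 in the exercise control and 6.19 in the control, the SQH library being the highest. Sirt3 shares 418 bases at its 3' end with Ric8a on the opposite strand, so its reads are uncertain.

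Genes that copy, keep and transcribe mitochondrial DNA, the machinery around TFAM, numbered 21, of which 13 were past the minimum. Ssbp1, the single-stranded DNA-binding protein of the mitochondrion, was called lower in the exercise control against the control (-2.04 ± 0.29) and higher with SQH against the exercise control (1.34 ± 0.30). It stood at 6.45 with SQH, 5.11 in the exercise control and 7.15 in the control. In the second of these comparisons the mitochondrial thymidine kinase gene Tk2 (-1.33 ± 0.23) and Mterf4 (-1.03 ± 0.11), a factor of mitochondrial ribosome assembly, were called lower. Tk2 stood at 5.57 with SQH, 6.91 in the exercise control and 6.25 in the control, and Mterf4 at 7.94, 8.98 and 8.65. Mterf4 shares 1855 exonic bases with Sned1 on the opposite strand, among them all of its last 500, so its reads are uncertain. Sned1 was listed at 0 in every library. The list median was 0.10 for the exercise control against the control, -0.34 for SQH against the exercise control and -0.17 for SQH against the control, where no member was called. Called members were 1, 3 and 0 of 13 in these comparisons, beside 8.29%, 8.01% and 3.02% of all rows.

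Of 48 textbook muscle targets of PGC-1 and the estrogen-related receptors, 47 were past the minimum. Fabp3, the fatty acid carrier of oxidative muscle (-1.12 ± 0.02), Fndc5, the precursor of irisin (-1.07 ± 0.04), and Ldhb, the oxidative-tissue subunit of lactate dehydrogenase (-1.06 ± 0.06), were called lower in the exercise control against the control, and none was called higher. These 3 of 47 stand beside 8.29% of all rows called and 5.33% called lower, so the share is near that of rows in general. Only Fabp3 was still past the threshold after centring and after quantile normalization, at -1.04 in both. The list median was -0.05, with 22 above and 25 below 0, where 46.3% of all rows lay above 0. With SQH against the exercise control, Pdk4 (1.96 ± 0.04), Fabp3 (1.24 ± 0.02) and Ldhb (1.24 ± 0.06) were called higher and none lower, with a median of 0.06, again 3 of 47 beside 8.01% of all rows called and 5.68% called higher. Pdk4, the kinase that shuts off pyruvate dehydrogenase, was the only target called with SQH against the control (1.58 ± 0.03). It stood at 13.00 with SQH, 11.04 in the exercise control and 11.42 in the control, so unlike Ppargc1a it did not lie above the control in the exercise control library. In the comparison with the control, 27 of 47 targets lay above 0, beside 48.7% of all rows. Their median was 0.02, beside 1.65 for Ppargc1a. Fabp3 shares 81 bases at its 3' end with Zcchc17, which stood at 9.43 with SQH, 9.53 in the exercise control and 9.66 in the control.

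**Figure D5:**
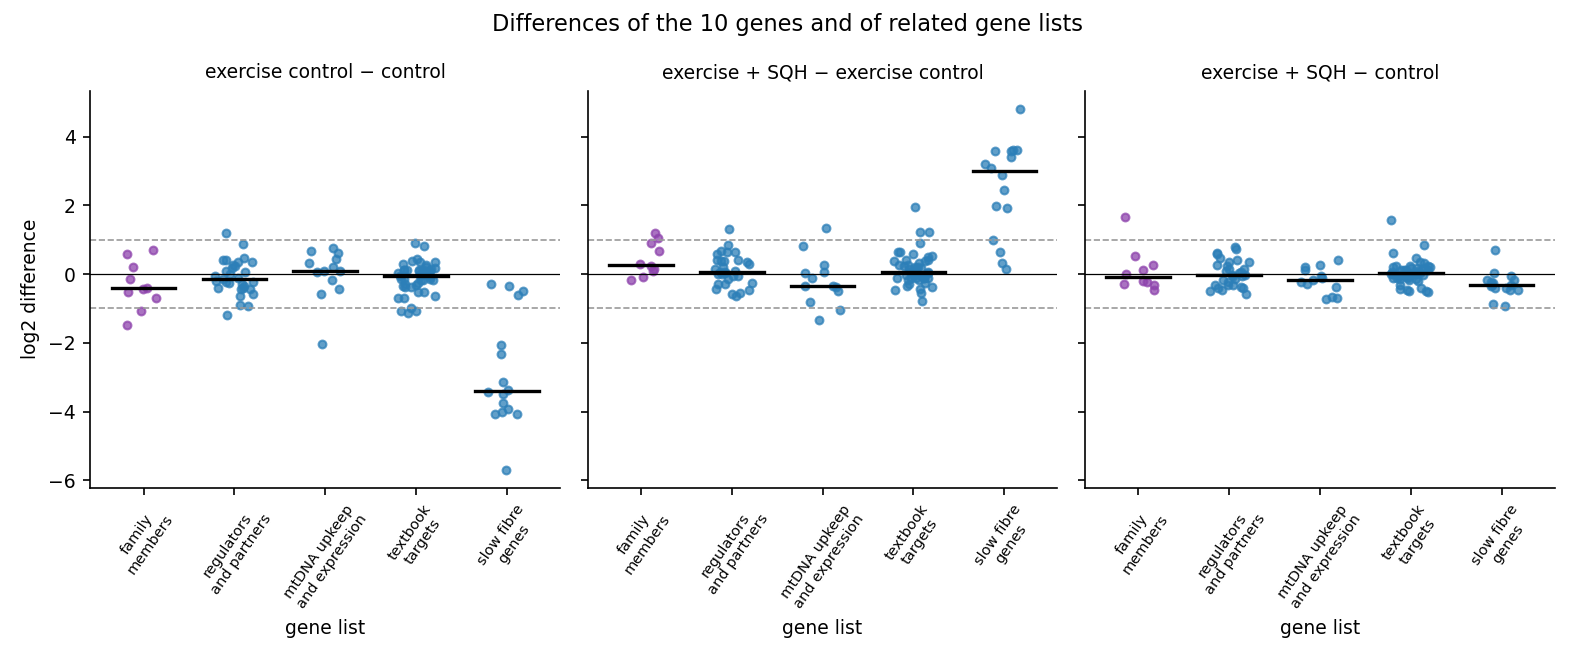
Log2 differences (vertical axis) of the 10 genes (purple) and of the members past the minimum of 4 other lists (blue) in the 3 comparisons, with the median of each list as a black bar and the threshold dashed. The textbook targets stay centred near 0 in every panel (medians -0.05, 0.06 and 0.02), while the slow fibre genes lie far below 0 in the left panel (-3.39) and far above it in the middle panel (3.0).

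In the mouse annotation GENCODE M21 (build GRCm38, the assembly called mm10) all 10 are protein-coding genes. Ppargc1a lies on chromosome 5 from 51454250 to 51567726 and Perm1 on chromosome 4 from 156215868 to 156221307. Esrra lies on chromosome 19 from 6910977 to 6921813, Esrrb on chromosome 12 from 86361117 to 86521628 and Esrrg on chromosome 1 from 187608791 to 188214885. No exon of Ppargc1a, Ppargc1b, Esrrb, Esrrg, Perm1, Tfam or Nrf1 overlaps that of another annotated gene, and these include the 3 members called.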

How the data were processed

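Muscle RNA (500 ng per library) went into QuantSeq 3' libraries, per the labels' protocols. Bowtie2, edgeR and the build mm10 are named in the submitters' processing notes, with neither version nor role. How reads were counted, on which annotation and strand and with what filters is not given in the sources used here. The deposited values are log2 levels, 1 column per library. Their unit was read from the values, the headers naming samples only. Linear values up to 9 bunch at multiples of a library-wide step of 0.766 with SQH, 1.19 in the exercise control and 0.939 in the control, and 84.4%, 95.7% and 100.0% lay within 0.2 step of one. Reads are the linear value divided by the step, so they are approximate, and no count model was fitted.

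Groups come from the sample titles. Differences were taken on the deposited scale in Python 3.11.15 with NumPy and SciPy. The size rule was run on simulated counts that held counting error only, which cannot show how it behaves with variation between mice. The planned design allowed for read counts, and the size rule for normalized values applied. Members and lists were chosen with earlier results of these data known. Genes were named by rule: all 10 members, from each list up to 6 called members per comparison or otherwise up to 3, and the 5 nearest in pattern to each called member. Alternatives were centring, quantile normalization, 16 added linear units, other expression minimums and a 1.5-fold threshold.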

Additional observations from a re-analysis of the deposited data

How the results depend on the processing

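No paired analysis was possible because each group has 1 library and the labels carry no replicate numbers, and no library could be left out within a comparison. Under centring, quantile normalization and 16 added linear units, 90 member differences were recomputed. All 90 kept their sign and 87 moved by less than the counting interval. Adding the same units to both libraries cannot change a sign, so that setting could not have shown a reversal. Of the 3 that moved by more, 1 was Perm1 in the exercise control against the control after centring (-0.34). The others were Ppargc1a with SQH, against the exercise control after centring (0.98) and against the control after quantile normalization (1.73). Counts of called genes depended more on the settings. In the exercise control against the control, called members numbered 0 with the minimum at the upper quartile, where 4 members remained, and 5 at a 1.5-fold threshold. Among all rows, 75 were higher and 158 lower of 3929 in the first setting, and 796 and 1216 of 7857 in the second. With SQH against the exercise control, called members numbered 1 after centring, 1 with 16 units added, 1 at the upper quartile and 4 at 1.5-fold. Among all 7857 rows, 375 were higher and 236 lower after centring, and 355 and 112 with the added units. At the upper quartile the rows called were 166 and 52 of 3929, and at 1.5-fold 1159 and 729 of 7857. Centring left Esrrb (1.12) and not Ppargc1a (0.98), and the added units left Ppargc1a (1.05) and not Esrrb (0.93). With SQH against the control, Ppargc1a was the only member called in the 6 alternatives. In that comparison 582 rows were higher and 500 lower of 7857 at 1.5-fold.

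For the exercise control against the control, called targets of 47 numbered 1 after centring, 1 after quantile normalization and 9 at 1.5-fold. In that comparison regulators numbered 0 of 19 at the upper quartile and 7 of 31 at 1.5-fold. Mitochondrial DNA genes numbered 5 of 21 without a minimum, 0 of 6 at the upper quartile and 5 of 13 at 1.5-fold. With SQH against the exercise control, regulators numbered 3 of 38 without a minimum, 0 of 19 at the upper quartile and 7 of 31 at 1.5-fold. Mitochondrial DNA genes numbered 7 of 21, 1 of 6 and 5 of 13 in the same settings, and targets 7 of 47 at 1.5-fold. With SQH against the control, regulators numbered 3 of 38 without a minimum and 4 of 31 at 1.5-fold. Mitochondrial DNA genes numbered 3 of 21 and 3 of 13 in these settings, and targets 3 of 47 at 1.5-fold. Without a minimum, the rows called were 1841 higher and 2418 lower of 15060 for the exercise control against the control. For SQH they were 2558 and 1638 of 15173 against the exercise control, and 1872 and 1495 of 15227 against the control. The row counts at 1.5-fold and at the upper quartile are those given above. A higher minimum tests fewer genes and a lower threshold admits smaller differences. Depth limits Esrrb most, with about 32 reads in the exercise control.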

Other observations

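Some genes of the lists lay below the expression minimum, and a few are given as values, chosen after these were seen. Crtc2, a coactivator of CREB that drives Ppargc1a transcription, stood at 6.58 with SQH, 0.31 in the exercise control and 5.84 in the control, where 0.31 is about 1.0 read. Mterf3, a factor of mitochondrial transcription and ribosome assembly, stood at 6.10 with SQH, 2.58 in the exercise control and 5.33 in the control. The near-identical copies Mterf1a and Mterf1b, between which reads may be split, were listed at 0 in the exercise control. Other members below the minimum were instead highest in that library. Among them, Crtc1 stood at 4.37 with SQH, 5.16 in the exercise control and 4.37 in the control. Top1mt stood at 5.79, 6.08 and 5.26 in the same libraries, and Kyat3 at 5.20, 5.95 and 4.76. Of the leukocyte markers none passed the minimum in these libraries, and Cd3e and Cd79a were at 0 in all 3.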
